A study of Homo sapiens with 15 samples.

Results

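The genes described here are the nuclear-encoded genes of the mitochondrial respiratory chain and of ATP synthase. They were taken from the authors' deposited table as the protein-coding rows whose symbol starts with NDUF, COX and a digit, UQCR, SDH followed by A to D, or ATP5. This gave 34 of 11230 rows: 15 of complex I, 3 of complex II, 4 of complex III, 4 of complex IV and 8 named for ATP synthase (complex V). Both structural subunits and assembly factors carry such symbols. The table lists only rows whose lowest adjusted p over the 4 comparisons is under 0.1, so each of the 34 genes had passed that threshold somewhere. Genes that the table does not list were not analysed here, and listed chain genes with other symbols are described after the 34.

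The RNA came from HEK293FT cells, a fast-growing line derived from human embryonic kidney cells that carries SV40 large T antigen. All cells, controls included, were given the activators dCas9-VP64 and MS2-p65-HSF1 together with 5 pooled guide RNAs, with puromycin at 2 ug/mL from 24 hours and harvest at 48 hours. In the target groups trex0108, trex4039, trex5008 and trex8168 the guides lay 50 to 450 bp upstream of the start of a TrEx long non-coding RNA, a class with transient expression during cortical neuron differentiation. In the control group the guides had non-targeting sequence. Each of the 5 groups held 3 libraries made as biological triplicates from polyA RNA. Titles and target labels conflict for 2 groups: the target given for libraries titled trex8168 is TrEx5008, and for libraries titled trex5008 it is TrEx8168. Group names here follow the titles, and which is right is unknown. Titles trex0108 and trex4039 carry the target labels TrEx108 and TrEx4039.

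The respiratory chain passes electrons from NADH (complex I) and succinate (complex II) through ubiquinone to complex III, and through cytochrome c to complex IV, which reduces oxygen. Complexes I, III and IV pump protons, and ATP synthase uses the proton gradient to make ATP. Complexes I, III, IV and V combine nuclear-encoded subunits with a few encoded in mitochondrial DNA, whereas complex II is wholly nuclear-encoded. None of the 15 mitochondrially encoded genes looked for was among the listed rows.

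The table gives the authors' mean normalised count per group, which is the source of every group mean below, a log2 fold change of each target group over control, and an adjusted p. It gives no spread, so values below carry no SD, and the authors' adjusted p is the measure of difference against replicate error. A gene is said to have risen or fallen where that p was under 0.05. The 4 comparisons share the same 3 control libraries, so a low or high control value enters all of them. Depth is unknown. In bulk RNA, fewer cells with a transcript and less RNA per cell cannot be told apart. Of 11 genes noted for HEK293 background, 7 were listed, and of these 1 rose and 4 fell in trex4039 and in trex5008, 1 rose and 2 fell in trex8168, and 0 were called in trex0108. Over all listed rows, 37.1% rose and 33.7% fell in trex4039, and 29.8% and 24.3% in trex5008. These shares were 14.6% and 6.45% in trex8168, and 5.65% and 0.249% in trex0108. The median log2 fold change of the 7 genes in trex4039 was -0.20, and 0.01 with a linear trend on transcript GC content removed. The neurofilament gene NEFM had means of 5626, 3590, 4863 and 5463 in trex0108, trex4039, trex5008 and trex8168, against 5358 in control, and the kidney developmental factor PAX2 had 392.4, 300.3, 282.2 and 372.9, against 368.6 in control. CDH2, of the same list, had 4314, 5253, 4793 and 4689 in the same order, against 4215 in control. It was the gene of this list that rose in trex4039, trex5008 and trex8168, and was named after its values were seen. None of 13 markers of other cultured lines was listed.

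Transcript GC content and promoter motifs recur in the results, and examples are shown first. The coding starts of NDUFA12, which rose in trex4039, and NDUFB7, which fell in it, are given as 1 example of each direction. The pair does not stand for all members. Transcript GC content was 44.6% for NDUFA12 and 65.0% for NDUFB7, but 50.8% for NDUFV3, which also fell. Each stretch is the first 150 bases of the coding sequence in GENCODE 29 (GRCh38), with the start codon in capitals. GC makes up 49.3% of the stretch of NDUFA12 (chromosome 12, minus strand) and 68.0% of that of NDUFB7 (chromosome 19, minus strand).
NDUFA12: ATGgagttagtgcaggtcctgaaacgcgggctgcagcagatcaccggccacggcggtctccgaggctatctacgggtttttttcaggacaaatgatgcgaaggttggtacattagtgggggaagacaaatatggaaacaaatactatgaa
NDUFB7: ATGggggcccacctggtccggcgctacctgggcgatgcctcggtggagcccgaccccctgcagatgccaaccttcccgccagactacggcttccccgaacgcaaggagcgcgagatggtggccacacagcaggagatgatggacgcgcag

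The promoters of ATP5C1 and NDUFB7 are shown as the 250 bases before the RefSeq start (GRCh38.p14), with matches to the NRF1, ETS and YY1 motifs, known from respiratory gene promoters, in capitals. Each also holds 1 match to the Sp1 motif, left in lower case. In ATP5C1 (chr10:7787927-7788176, plus strand) the capitals mark a match to the NRF1 motif, and in NDUFB7 (chr19:14572067-14572316, minus strand) a match to the ETS motif. COX20 and NDUFV3 were picked in the same way, by their high and low fold changes in trex4039. Their 250 bases held no match to the NRF1, ETS or YY1 motif and are not shown.
ATP5C1: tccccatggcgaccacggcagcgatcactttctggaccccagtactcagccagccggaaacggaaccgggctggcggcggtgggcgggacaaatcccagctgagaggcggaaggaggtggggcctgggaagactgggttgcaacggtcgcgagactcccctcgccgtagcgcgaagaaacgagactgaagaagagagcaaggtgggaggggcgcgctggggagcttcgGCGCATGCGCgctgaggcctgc
NDUFB7: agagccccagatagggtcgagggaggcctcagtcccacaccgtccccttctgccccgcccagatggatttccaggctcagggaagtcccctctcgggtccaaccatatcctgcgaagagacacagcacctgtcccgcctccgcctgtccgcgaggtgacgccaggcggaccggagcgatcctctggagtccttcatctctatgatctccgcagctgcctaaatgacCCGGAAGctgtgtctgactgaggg

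RefSeq promoter windows of 300 bases, 250 before and 50 after the first listed start, were matched for 29 of the 34 genes. The NRF1 motif, the letters GCGCA followed by any base and then GCGC, searched like the others on both strands, was in 6 of these 29 windows (20.7%) and in 8.57% of 15842 windows of protein-coding genes. CCGGAAG (the ETS core, read by GABP) was in 7 of 29 (24.1%) and in 14.2% of all windows. AAGATGG (YY1) was in 6 of 29 (20.7%) and in 6.40% of all, and GGGCGG (Sp1) in 16 of 29 (55.2%) and in 58.5% of all. Among members with a window, those that rose in trex4039 held NRF1 letters in 4 of 13 and those that fell in 1 of 7. The ETS letters were in 3 of 13 and 1 of 7, the YY1 letters in 4 of 13 and 1 of 7, and the Sp1 letters in 6 of 13 and 5 of 7. Their median window GC content was 65.3% and 66.0%, so the promoter windows of both sets had nearly the same base composition. These are matches of letters and say nothing of binding.

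In trex8168, 14 of the 34 genes rose and none fell. That is 41.2% of the genes, where 14.6% of all listed rows with an adjusted p and 16.6% of protein-coding rows rose, and 6.45% and 4.57% fell. In trex5008, 15 rose and 3 fell, where 29.8% of all rows and 32.4% of protein-coding rows rose and 24.3% and 24.6% fell. In trex4039, 15 rose and 8 fell, a share of 44.1% and 23.5%, close to the 37.1% and 33.7% of all rows and the 41.6% and 30.9% of protein-coding rows. In trex0108 only COX20 rose and none fell, where 5.65% and 0.249% of all rows and 5.52% and 0.228% of protein-coding rows did so. The share that rose in trex8168 was thus above its background, whereas both shares in trex4039 lay nearer to theirs. The difference was not tested. Listing itself required an adjusted p under 0.1 in some comparison, and the risers NDUFB11 and ATP5J met this only in trex8168. The lowest mean of a member over all libraries was 478.0, and the background rows were not matched for level. In 15 of the 34 genes the row spans more than 2 times the RefSeq gene length, COX20 included, so that reads of neighbours may be counted. Without these 15 genes, a choice made after the data were seen, 9 rose and 4 fell in trex4039, 10 rose and 1 fell in trex5008, 10 rose and 0 fell in trex8168, and 0 were called in trex0108.

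The median log2 fold change over the 34 genes was 0.08 in trex0108, 0.14 in trex4039, 0.15 in trex5008 and 0.19 in trex8168, from the authors' deposited table. Over all listed protein-coding rows the median was 0.03, 0.09, 0.05 and 0.06 in the same 4 comparisons. All changes were small: the lowest was -0.46, for NDUFB7 in trex4039, and the highest 0.46, for COX20 in trex4039 per the authors' deposited table. Only SDHAF1 had a negative value in trex8168 (-0.00, with an adjusted p of 0.987 per the authors' deposited table), whereas 11 genes had a negative value in trex4039.

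**Figure D1:**
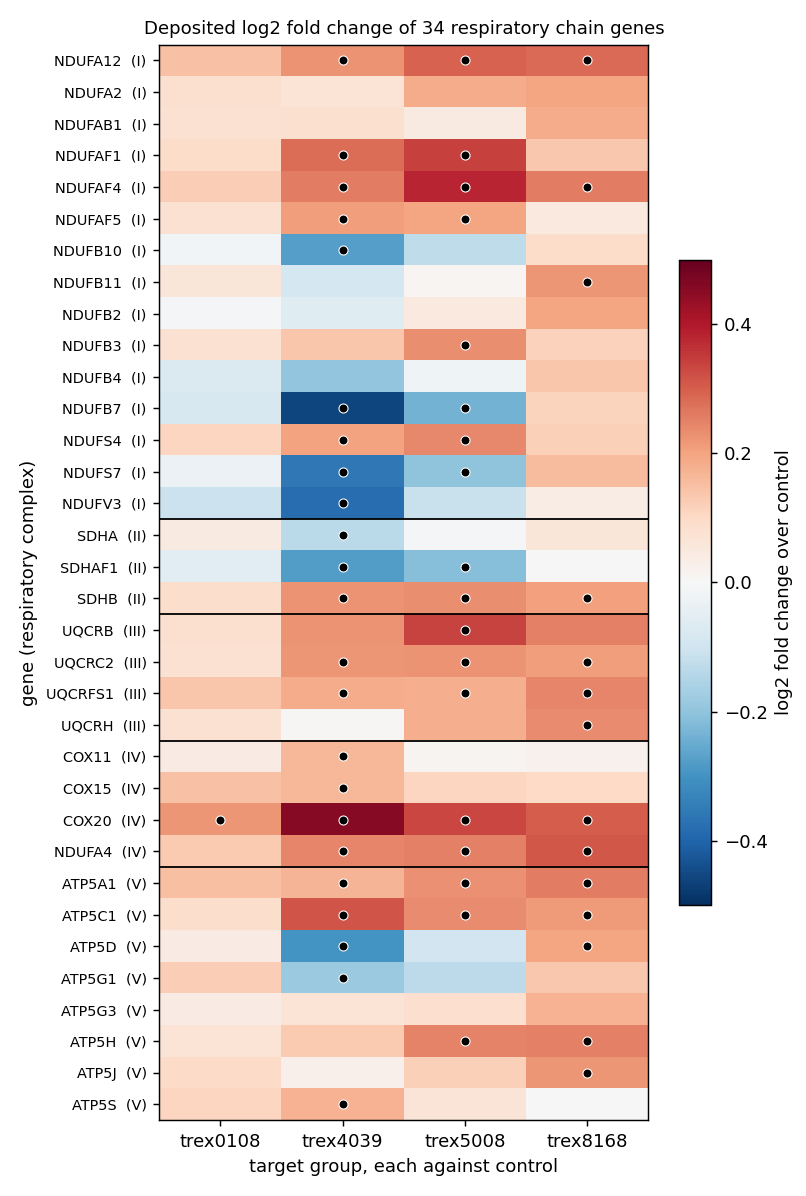
Deposited log2 fold change of the 34 genes (rows, by complex in parentheses) in each target group over control (columns), with black dots where the authors' adjusted p was under 0.05. The trex8168 column holds 14 dots, all on rises, and the trex4039 column holds 15 rises and 8 falls, from 0.46 for COX20 to -0.46 for NDUFB7.

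Complex I, the NADH dehydrogenase, had members that moved in both directions in trex4039 and trex5008. Of its 15 listed genes, 5 rose and 4 fell in trex4039, 6 rose and 2 fell in trex5008, 3 rose and 0 fell in trex8168, and 0 were called in trex0108. Both directions were also common among all listed rows, of which 37.1% rose and 33.7% fell in trex4039. In trex5008 29.8% rose and 24.3% fell, and in trex8168 14.6% and 6.45%. The summed group means of the 15 complex I genes were 101.3%, 93.8%, 102.5% and 112.0% of control in trex0108, trex4039, trex5008 and trex8168. Among the 4 target groups the sum was thus below control only in trex4039. The sum is weighted to abundant genes. The median over the 15 genes was 105.8%, 105.3%, 103.6% and 111.3% of control in the same order, above control in trex4039 as well.

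NDUFS7, the core subunit that holds the last iron-sulphur cluster before ubiquinone, was the only listed catalytic core subunit of complex I. In the authors' deposited table it had means of 1887 in trex0108, 1483 in trex4039, 1662 in trex5008 and 2167 in trex8168, against 1929 in control. It fell in trex4039 (log2 fold change -0.36, adjusted p 1.73e-06) and in trex5008 (-0.20, 0.0122), and had 0.16 with an adjusted p of 0.106 in trex8168 per the authors' deposited table. The lowest mean was in trex4039 and the highest in trex8168, with control between them.

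NDUFB7, an accessory subunit of the distal membrane arm, showed the furthest fall of all members. Its means were 2062, 1561, 1839 and 2375 in trex0108, trex4039, trex5008 and trex8168, against 2188 in control. It stood at 71.4% of control in trex4039, with a log2 fold change of -0.46 (adjusted p 3.15e-10), and at 84.0% in trex5008, with -0.23 and 0.00269 per the authors' deposited table. NDUFB10, of the same arm, had 4998, 4122, 4594 and 5399.8 in the target groups in the same order, against 5045 in control. It fell in trex4039 alone among the 4 comparisons (log2 fold change -0.27, adjusted p 3.14e-04 per the authors' deposited table). NDUFB11, the X-linked subunit of this arm, rose in trex8168 instead, with 3716 against 3145 in control, a log2 fold change of 0.22 (adjusted p 0.0311) per the authors' deposited table. Its row spans 65.3 kb, 19.9 times the RefSeq gene length, and overlaps that of RBM10. Over the 6 listed membrane arm subunits, 0 rose and 2 fell in trex4039, and their summed mean was 87.4% of control there and 111.3% in trex8168. NDUFB3, which rose in trex5008 (0.23, adjusted p 0.0339), and NDUFB2 and NDUFB4, which passed in no comparison, make up the rest of this arm per the authors' deposited table.

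NDUFV3, an accessory subunit of the NADH-oxidising tip, fell in trex4039 with a mean of 1740.4 against 2302 in control, a log2 fold change of -0.38 (adjusted p 1.49e-07) per the authors' deposited table. It had 2124, 2122 and 2367 in trex0108, trex5008 and trex8168 per the authors' deposited table, and none of these passed at 0.05. Its row spans 175.0 kb (chromosome 21, 44299754 to 44474764, hg19), 8.75 times the RefSeq gene length, and overlaps the rows of CBS and PKNOX1, so part of its reads may belong to neighbours.

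In the same peripheral arm, NDUFA12 and NDUFS4 moved the other way. NDUFA12, a subunit that takes the place of an assembly factor late in assembly, had means of 1819.6, 1929, 2030.0 and 2014 in trex0108, trex4039, trex5008 and trex8168, against 1628 in control. It rose in trex4039 (log2 fold change 0.23, adjusted p 0.0127), trex5008 (0.29, 9.24e-04) and trex8168 (0.28, 0.00581) per the authors' deposited table. All target means of NDUFA12 lay above control, although trex0108 did not pass with an adjusted p of 0.675 per the authors' deposited table. NDUFS4, needed for a stable NADH-oxidising tip, rose in trex4039 (924.0 against 793.9 in control, adjusted p 0.0312) and in trex5008 (952.2, adjusted p 0.00797) per the authors' deposited table. NDUFA2, of the peripheral arm, and NDUFAB1, the mitochondrial acyl carrier protein, passed in no comparison at 0.05.

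The 3 complex I assembly factors with an NDUFAF symbol all rose in trex4039 and trex5008. NDUFAF4, which acts on the quinone-reducing part, had means of 1365, 1511, 1660.5 and 1509.6 in trex0108, trex4039, trex5008 and trex8168, against 1242 in control. Its log2 fold changes were 0.26, 0.38 and 0.26 in trex4039, trex5008 and trex8168, with adjusted p of 0.0056, 2.71e-05 and 0.0188 per the authors' deposited table. NDUFAF1, which acts on the membrane arm, had 935.4, 1076, 1128 and 966.9, against 871.6 in control, and rose in trex4039 (0.28, adjusted p 0.00158) and trex5008 (0.34, adjusted p 1.12e-04) per the authors' deposited table. NDUFAF5, a methyltransferase-family factor, rose in the same groups with 0.21 and 0.20 and adjusted p of 0.0133 and 0.0203 per the authors' deposited table. In trex4039 these 3 NDUFAF genes thus rose, as did the subunits NDUFA12 and NDUFS4, while the subunits NDUFB7, NDUFB10, NDUFS7 and NDUFV3 fell. Assembly factors and subunits of the chain with other symbols moved both ways there. Of 19 listed, 7 rose and 9 fell, with the assembly factors FOXRED1 (-0.27) and ACAD9 (-0.19) among the falls per the authors' deposited table. Transcript GC content was 65.0% for NDUFB7, 66.8% for NDUFS7 and 36.3% for NDUFAF4. With a linear trend on transcript GC content removed, NDUFAF1, NDUFAF4 and NDUFAF5 stood at 0.16, -0.11 and 0.03 in trex4039. NDUFB7, NDUFB10, NDUFS7 and NDUFV3 then stood at -0.08, -0.04, 0.07 and -0.37, and NDUFA12 and NDUFS4 at 0.07 and -0.01.

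Complex II, succinate dehydrogenase, also belongs to the tricarboxylic acid cycle, and its 3 listed genes split in trex4039. SDHB, the iron-sulphur subunit, had means of 4910.4, 5438, 5463 and 5366 in trex0108, trex4039, trex5008 and trex8168, against 4609.6 in control. It rose in trex4039, trex5008 and trex8168, with log2 fold changes of 0.22, 0.23 and 0.21 and adjusted p of 0.0032, 0.0028 and 0.0234 per the authors' deposited table. SDHA, the flavin-bearing subunit that pairs with SDHB, had 9701, 8526, 9341 and 9805 in the same order, against 9389 in control, and fell in trex4039 (-0.13, adjusted p 0.0448) per the authors' deposited table. Thus the catalytic pair was called in opposite directions in trex4039. With the linear trend on transcript GC content removed, SDHA stood at -0.03 and SDHB at 0.11 there. SDHAF1, an assembly factor that serves SDHB, had 497.1, 418.2, 439.8 and 517.4, against 517.5 in control, and fell in trex4039 (-0.28, adjusted p 0.00304) and in trex5008 (-0.21, adjusted p 0.031) per the authors' deposited table. With the same trend removed SDHAF1 stood at 0.06 in trex4039 and 0.04 in trex5008, and its row spans 12.2 times the RefSeq gene length. The pseudogene SDHAP1, a copy of part of SDHA, is also listed and fell in trex4039 (632.8 against 879.2 in control) and in trex8168 (704.9), with adjusted p of 1.23e-08 and 0.00167 per the authors' deposited table. Reads may be split between SDHA and this copy.

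**Figure D2:**
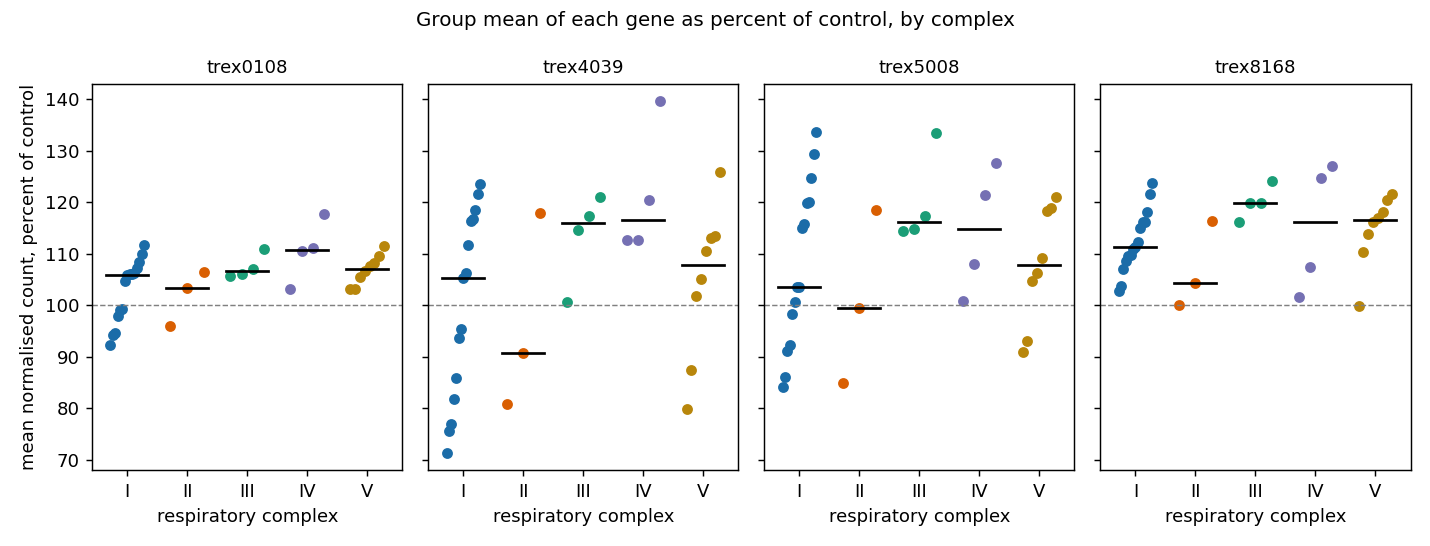
Mean normalised count of each gene as percent of control (vertical axis) by complex (horizontal axis), with one panel per target group, points for genes and black lines for medians over genes. The 4 UQCR genes of complex III lay between 116.2% and 124.1% of control in trex8168, and complex I genes between 71.4% and 123.5% in trex4039.

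Of the 8 symbol-matched genes of complexes III and IV, 6 rose in trex4039, 5 in trex5008, 5 in trex8168 and 1 in trex0108, and none fell in these comparisons. Among all listed rows 37.1%, 29.8%, 14.6% and 5.65% rose in the same order. Transcript GC content of the 8 genes ranged from 38.9% to 47.4%. With the linear trend on it removed, UQCRB (-0.08), UQCRH (-0.07) and NDUFA4 (-0.02) were negative in trex4039. COX20 stood at 0.32 there, and the rest between 0.03 and 0.08. Genes of these complexes with other symbols are not among the 8, and they moved both ways in trex4039. The complex III subunit CYC1 (-0.26) and the assembly factors BCS1L (-0.50) and COA4 (-0.28) fell, whereas LYRM7 (0.45) rose, per the authors' deposited table. BCS1L also fell in trex5008 (-0.22) per the authors' deposited table. UQCRC2, a core protein of the complex III dimer, had means of 8119, 9014, 9025 and 8927 in trex0108, trex4039, trex5008 and trex8168, against 7685 in control. Its log2 fold changes were 0.22, 0.22 and 0.21 in trex4039, trex5008 and trex8168, with adjusted p of 2.89e-04, 3.59e-04 and 0.00395 per the authors' deposited table. These 3 target means lay close together and above both trex0108 and control.

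UQCRFS1, the Rieske iron-sulphur protein that takes electrons from ubiquinol, had 3585, 3703, 3698 and 3877, against 3233 in control, and rose in trex4039 (adjusted p 0.0199), trex5008 (0.0217) and trex8168 (0.00533) per the authors' deposited table. UQCRH, the hinge protein, rose in trex8168 (5148 against 4295 in control, adjusted p 0.0393), while trex4039 had 4320.0 and an adjusted p of 0.964 per the authors' deposited table. UQCRB, a small subunit near the quinone site, rose in trex5008 (8161 against 6116 in control, log2 fold change 0.34, adjusted p 0.00955) per the authors' deposited table. It had 6547 in trex0108, 7400.0 in trex4039 and 7588 in trex8168, the last pair with adjusted p of 0.113 and 0.114 per the authors' deposited table. The rows of UQCRB and UQCRFS1 span 15.3 and 14.6 times the RefSeq gene length. The 4 UQCR genes, without CYC1, had summed means of 106.9%, 114.6%, 121.0% and 119.8% of control in trex0108, trex4039, trex5008 and trex8168.

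COX20, a chaperone of the second core subunit of complex IV, was the member with the largest rise in trex4039. Its means were 994.3, 1179, 1078 and 1054 in trex0108, trex4039, trex5008 and trex8168, against 844.1 in control (chromosome 1, 244979074 to 245008895, hg19). The log2 fold changes were 0.22, 0.46, 0.33 and 0.30, with adjusted p of 0.0337, 5.81e-11, 6.22e-06 and 2.79e-04 per the authors' deposited table. Every target mean lay above control, by 17.8% in trex0108 and 39.6% in trex4039. A low value in the shared control libraries would raise all 4 comparisons, which cannot be told apart from a change in each target group with group means alone.

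NDUFA4, first assigned to complex I and now placed in complex IV, was the member with the largest rise in trex8168. It had 2487, 2713, 2734 and 2859.8 in trex0108, trex4039, trex5008 and trex8168, against 2251 in control. It rose in trex4039, trex5008 and trex8168, with log2 fold changes of 0.24, 0.25 and 0.31 and adjusted p of 0.0149, 0.0111 and 0.00549 per the authors' deposited table. COX11, a copper-insertion factor, and COX15, which makes haem A, rose in trex4039 with log2 fold changes of 0.17 each and adjusted p of 0.00827 and 0.00366 per the authors' deposited table. The row of COX11 spans 358.8 kb, 21.3 times the RefSeq gene length, and overlaps those of STXBP4 and TOM1L1. No structural subunit with a COX symbol was among the listed rows, so complex IV is represented here by NDUFA4 and 3 assembly factors.

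**Figure D3:**
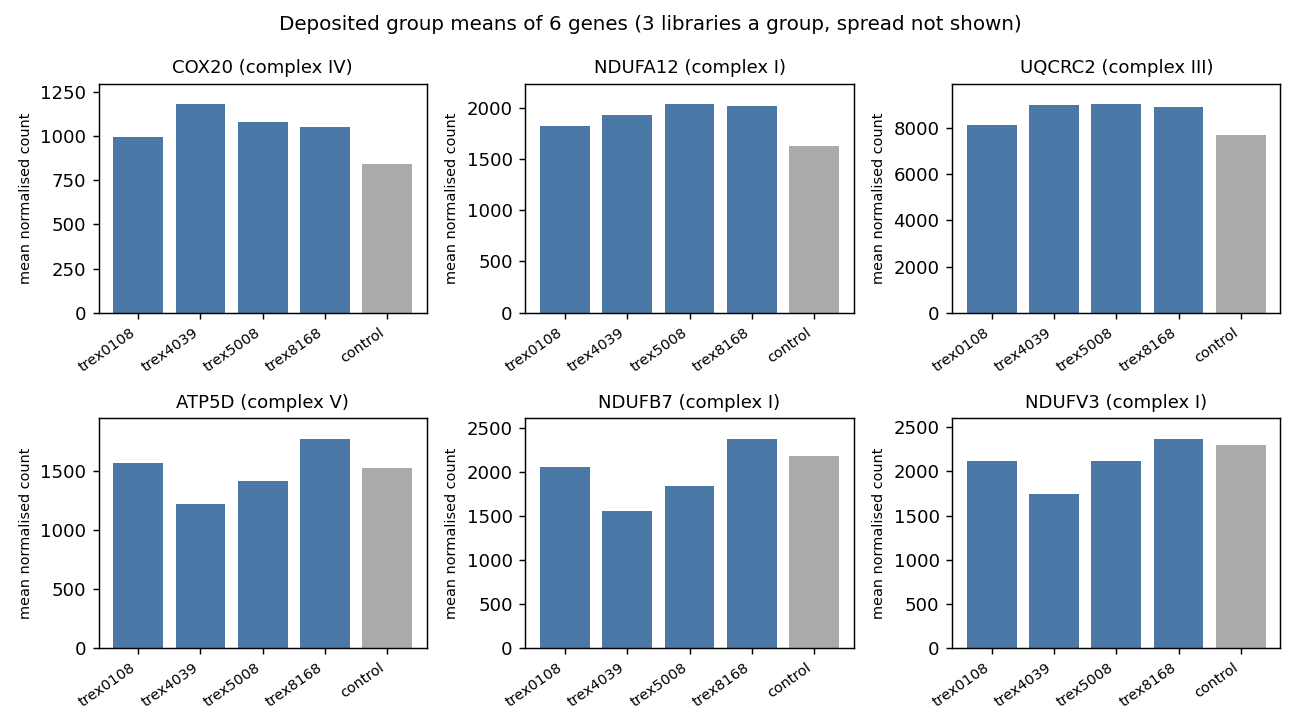
Deposited mean normalised counts of 6 genes (bars, vertical axis from 0) in the 4 target groups and, in grey, control. COX20, NDUFA12 and UQCRC2 had all target means above control, whereas ATP5D, NDUFB7 and NDUFV3 had their lowest mean in trex4039 and their highest in trex8168.

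Of the genes named for ATP synthase, 5 of 8 rose and 0 fell in trex8168, 3 rose and 0 fell in trex5008, 3 rose and 2 fell in trex4039, and 0 were called in trex0108. The shares of all listed rows that rose and fell were 14.6% and 6.45% in trex8168, 29.8% and 24.3% in trex5008, and 37.1% and 33.7% in trex4039. ATP5A1, the alpha subunit of the catalytic head, had means of 16526, 16751, 17519.7 and 17837 in trex0108, trex4039, trex5008 and trex8168, against 14812 in control. It rose in trex4039, trex5008 and trex8168, with log2 fold changes of 0.17, 0.23 and 0.25 and adjusted p of 0.0213, 0.00122 and 0.00146 per the authors' deposited table. ATP5C1, the gamma subunit of the rotating shaft, had 9478, 11183, 10562 and 10393, against 8888 in control, and its log2 fold changes in the same 3 groups were 0.31, 0.24 and 0.21 per the authors' deposited table. Its adjusted p were 9.78e-06, 0.00162 and 0.0145 per the authors' deposited table, and its highest mean was in trex4039.

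ATP5D, the delta subunit of the same shaft (chromosome 19, 1241682 to 1247016, hg19), was the member called in both directions. Its means were 1572, 1218, 1418 and 1769.9 in trex0108, trex4039, trex5008 and trex8168, against 1524 in control. It fell in trex4039 (log2 fold change -0.30, adjusted p 2.64e-04) and rose in trex8168 (0.20, adjusted p 0.0494) per the authors' deposited table. In trex4039 it stood at 79.9% of control while its shaft partner ATP5C1 stood at 125.8%, and in trex8168 they stood at 116.1% and 116.9%. Their transcript GC contents were 68.7% and 42.9%. With the linear trend on transcript GC content removed, the log2 fold changes in trex4039 were 0.18 for ATP5D and 0.12 for ATP5C1, both positive. The rise of ATP5D lies just inside the threshold.

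The peripheral stalk genes ATP5H and ATP5J rose in trex8168 with 2576 and 2769 against 2119 and 2344 in control, and adjusted p of 0.0294 and 0.0311 per the authors' deposited table. ATP5H, subunit d, also rose in trex5008 (2566, adjusted p 0.0127) per the authors' deposited table. The row of ATP5J overlaps that of GABPA, a neighbouring gene that rose in trex4039 and trex5008. Subunit c of the rotor ring is encoded by several genes that share a mature protein, of which ATP5G1 and ATP5G3 were listed. ATP5G1 had 2525, 2014, 2095 and 2546 in trex0108, trex4039, trex5008 and trex8168, against 2305 in control, and fell in trex4039 (-0.18, adjusted p 0.0163) per the authors' deposited table. ATP5G3 had 5540.1, 5654, 5717 and 6118, against 5375 in control, and passed in no comparison at 0.05 per the authors' deposited table. ATP5S, a protein also called factor B, rose in trex4039 alone among the 4 comparisons (1047 against 922.7 in control, adjusted p 0.0213) per the authors' deposited table.

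Set directly against each other without control, 22 of the 34 genes had a lower mean in trex4039 than in trex8168, beside 51.1% of protein-coding rows. Against trex5008, 26 of the 34 were lower in trex4039, beside 45.3% of protein-coding rows, with a median log2 ratio of -0.07. Against trex8168, 21 were lower in trex5008, beside 52.4%. The median log2 ratio of trex4039 over trex8168, with a pseudocount of 1, was -0.10 over the 34 genes and -0.01 over all listed protein-coding rows. Means in trex4039 were 65.7% of those in trex8168 for NDUFB7, 68.4% for NDUFS7 and 68.8% for ATP5D, and 113.6% for ATP5S and 111.9% for COX20. These ratios rest on group means, and differences between target groups were not tested. Listing also bears on the 22 genes. NDUFAB1, NDUFB2, NDUFB11, ATP5G3 and ATP5J had an adjusted p under 0.1 only in trex8168, where they were high. NDUFB4, NDUFB10, NDUFV3, SDHA and ATP5G1 had it only in trex4039, where they were low. All of these are among the 22. In the other direction, COX11 and ATP5S had it only in trex4039, where they were high.

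Transcript GC content moved with the direction of change in trex4039 and trex5008. Over 6377 listed protein-coding rows with a GC content, the log2 fold change shifted by -0.26 in trex4039, -0.20 in trex5008, -0.05 in trex8168 and -0.03 in trex0108 for each 10 percentage points of GC content. The 15 genes of the chain that rose in trex4039 had a median GC content of 45.2% and the 8 that fell 61.4%, beside 42.6% and 60.0% for protein-coding rows that rose and fell. None of those that rose exceeded 48.9%, and none of those that fell was under 50.8%, so the ranges did not overlap. How all protein-coding rows divide at these limits was not worked out, and their medians lay near those of the chain genes. Among the 14 that rose in trex8168 the range was 36.3% to 68.7%, with the GC-rich ATP5D (68.7%) and NDUFB11 (58.9%, its row the one that overlaps RBM10) among them.

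With the linear GC trend removed, all 14 rises in trex8168 kept their sign and at least 0.5 of their size, and their median was 0.22 beside 0.24 before. In trex5008 all 15 rises kept their sign and 7 of them at least 0.5 of their size, and none of the 3 falls kept its sign. In trex4039, 12 of 15 rises and 5 of 8 falls kept their sign, and 4 and 2 kept at least 0.5 of their size. NDUFV3 stood at -0.37 in trex4039 after the trend was removed, beside -0.38 before, and COX20 at 0.32 beside 0.46. ATP5D stood at 0.18 in trex4039 with the trend removed, beside -0.30 before, and NDUFS7 at 0.07 beside -0.36. NDUFB7 stood at -0.08 beside -0.46.

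**Figure D4:**
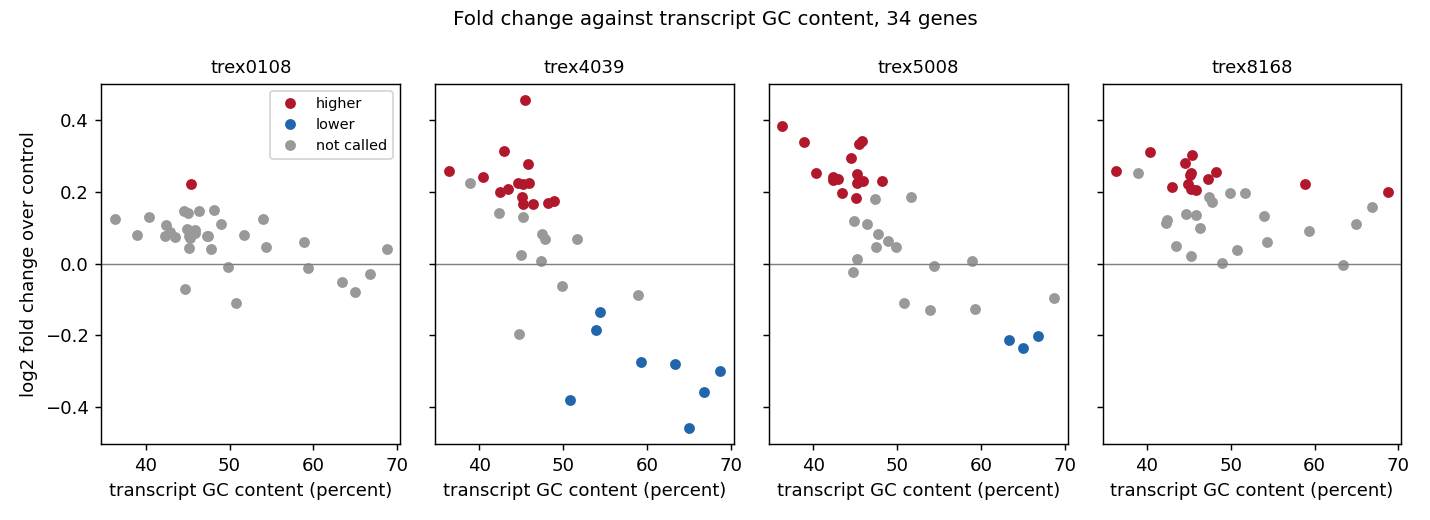
Deposited log2 fold change over control (vertical axis) against median transcript GC content in percent (horizontal axis) for the 34 genes, with one panel per target group and colour for genes that rose, fell or were not called. In trex4039 the genes that fell lie at 50.8% GC or more and those that rose at 48.9% or less, while the rises in trex8168 reach 68.7%.

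Other genes of the pathway, taken from lists by function, were set beside the members. To compare with each list, 37.1% of all listed rows rose and 33.7% fell in trex4039, and 29.8% and 24.3% in trex5008. In trex8168 these shares were 14.6% and 6.45%, and in trex0108 5.65% and 0.249%. Differences of the lists from these shares were not tested. Of 50 assembly factors and subunits with other symbols, 19 were listed, of which 7 rose and 9 fell in trex4039, 9 rose and 3 fell in trex5008, 6 rose and 0 fell in trex8168, and 0 were called in trex0108. CYC1, the cytochrome subunit of complex III, had 5053, 4082, 4586 and 5560.1 in trex0108, trex4039, trex5008 and trex8168, against 4909 in control. It fell in trex4039 (log2 fold change -0.26) and rose in trex8168 (0.17, adjusted p 0.0168) per the authors' deposited table, as ATP5D did, and its GC content was 61.8%. With the GC trend removed it stood at 0.04 in trex4039. CYC1 was named after its values were seen. The furthest moves of the list were those of BCS1L, which inserts the Rieske protein, at -0.50, and LYRM7, which stabilises that protein before insertion, at 0.45, both in trex4039 per the authors' deposited table. Without the GC trend these stood at -0.36 and 0.10.

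Among 11 listed genes of mobile carriers and quinone synthesis, 5 rose and 4 fell in trex4039, 5 rose and 3 fell in trex5008, 3 rose and 0 fell in trex8168, and 1 rose and 0 fell in trex0108. PRODH, which feeds electrons from proline, and COQ10B, a coenzyme Q-binding protein, moved furthest, to -0.49 and 0.43 in trex4039 per the authors' deposited table. CYCS, the carrier cytochrome c itself, had 8322, 9495, 9623 and 8774 in trex0108, trex4039, trex5008 and trex8168, against 7547 in control, and rose in trex5008 (0.33) and trex8168 (0.21, adjusted p 0.0196) per the authors' deposited table. It also rose in trex4039, with 0.31 per the authors' deposited table, and was named after its values were seen.

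Of 11 listed genes of mitochondrial DNA upkeep and transcription, 4 rose and 4 fell in trex4039, 5 rose and 4 fell in trex5008, 0 were called in trex8168, and 1 rose in trex0108. RRM2B, a ribonucleotide reductase subunit, and POLRMT, the mitochondrial RNA polymerase, moved furthest, to 0.56 and -0.48 in trex4039 per the authors' deposited table. Of 5 listed regulators of respiratory gene transcription, 3 rose and 1 fell in trex4039 and in trex5008, 1 rose and 0 fell in trex8168, and 0 were called in trex0108. GABPA, the DNA-binding subunit of GABP, had 3255, 4226, 3516 and 3017 in trex0108, trex4039, trex5008 and trex8168, against 2881 in control. Its log2 fold change was 0.52 in trex4039 and 0.06 in trex8168 per the authors' deposited table, and 0.14 and -0.01 with the GC trend removed. MYC fell in trex4039, with a log2 fold change of -0.77 per the authors' deposited table and -0.56 with the GC trend removed. NRF1, TFAM and PPARGC1A were not listed.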

How the data were processed

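Processed values were used as deposited. The submitters' processing notes name STAR 2.5.1b and Bowtie2 2.2.1, DESeq2 1.14.1 and DESeq, Cufflinks and bedtools, and both hg19 and GRCh37, without saying what each was for. The signal columns deposited by the authors hold normalised counts averaged over the replicates of a group. The log2 columns deposited by the authors set a target group over control. The p-value columns deposited by the authors hold adjusted p, and their call columns equal an adjusted p under 0.1 with 0 mismatches. Values per library were not used here, so the count model planned for such values was replaced by the authors' adjusted p, no SD is given and depth is unknown. Overlapping genes are uncertain, since the sources used here do not give the strand setting.

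Members and gene lists were chosen with earlier results of these data known. Calls are the authors' adjusted p under 0.05. Genes were named by a rule: the 5 highest and 5 lowest called members per comparison, members called in at least 3 comparisons or in both directions, listed paralogs and complex II, and 2 members of each other list. The remaining members are accounted for more briefly, and other genes outside the rule are said to be named after their values were seen. GC content is the median over protein-coding transcripts of GENCODE 29. Symbols not in it were matched through RefSeq synonyms, which gave a value for all 34 members and 85.6% of protein-coding rows, and a linear trend over these rows was removed as an alternative. The GC step and the motif search were tested on simulated data. Python 3.11.15 with pandas 2.3.3 and numpy 2.4.6 was used. Row positions are hg19, counted from 1. In 15 of 34 members the row spans more than 2 times the RefSeq gene length, so reads of neighbouring transcripts may be counted. Reads of near-identical pseudogenes may be split as well.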

Additional observations from a re-analysis of the deposited data

How the results depend on the processing

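No paired analysis was possible because the table holds group means without values per library, and leaving out replicates, edgeR and DESeq2 were not run for the same reason. With an adjusted p under 0.1, or a mean of at least 50, every count stayed within 1.5 times its value above. With an adjusted p under 0.01 the rises numbered 0 in trex0108, 8 in trex4039 and 6 in trex8168, and the falls 1 in trex5008. Among structural subunits alone the rises numbered 0 in trex0108 and 8 in trex4039, and the median log2 fold change in trex4039 was 0.0675. Chosen after the data were seen, leaving out the 7 ATP synthase genes matched by synonym gave 9 rises in trex8168. Leaving out members whose row spans over 2 times the gene length, also chosen afterwards, gave 0 rises in trex0108, 9 rises and 4 falls in trex4039 and 1 fall in trex5008, and 10 rises in trex8168. Centred on all listed protein-coding rows, the median was 0.0493 in trex0108 and 0.0508 in trex4039. With the GC trend removed the median was 0.0136 in trex4039 and 0.0749 in trex5008, and 0 falls were left in trex5008. Called members that changed sign with the trend removed were, in trex4039, NDUFAF4 (-0.11), NDUFS4 (-0.0093), NDUFA4 (-0.0206), NDUFS7 (0.0681), SDHAF1 (0.0568) and ATP5D (0.18), and, in trex5008, NDUFB7 (0.0506), NDUFS7 (0.12) and SDHAF1 (0.0421). The summed mean of complex II in trex4039 was 114.2% of control without SDHA, its most abundant member, beside 99.1% with it. No called value of a member changed sign with the log2 ratio of means in place of the deposited fold change. With group means alone, differences between target groups and effects of single libraries could not be tested.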

Other observations

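Neighbouring steps of energy metabolism were also looked at. For this list and those below, 37.1% of all listed rows rose and 33.7% fell in trex4039. The shares were 29.8% and 24.3% in trex5008, 14.6% and 6.45% in trex8168, and 5.65% and 0.249% in trex0108. Of 18 listed genes of the tricarboxylic acid cycle, 8 rose and 7 fell in trex4039, 7 rose and 4 fell in trex5008, 5 rose and 0 fell in trex8168, and 0 were called in trex0108. OGDHL, an oxoglutarate dehydrogenase-like protein, and DLD, the shared lipoamide dehydrogenase, moved furthest, to -0.51 and 0.38 in trex4039, in the authors' deposited table. MDH2, the mitochondrial malate dehydrogenase, had 10276 in trex4039 and 13293 in trex8168, against 11405 in control, and was lower in trex4039 (adjusted p 0.0284) and higher in trex8168 (adjusted p 0.00333), in the authors' deposited table. MDH2 was named after its values were seen.

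Of 9 listed rows of glycolysis genes, 1 rose and 6 fell in trex4039, 1 rose and 4 fell in trex5008, and 0 were called in trex8168 and trex0108. Among all listed rows 37.1% rose and 33.7% fell in trex4039, and 29.8% rose and 24.3% fell in trex5008, and the difference from these shares was not tested. PKLR, a pyruvate kinase, and PFKL, a phosphofructokinase, moved furthest, to 0.89 and -0.64 in trex4039, in the authors' deposited table. The median transcript GC content of these rows was 57.9%, above the 46.2% of the respiratory chain genes. The median log2 fold change of these rows in trex4039 was -0.27, and -0.13 with the GC trend removed.

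Of 10 listed mitochondrial import genes, 5 rose and 1 fell in trex4039, 5 rose and 0 fell in trex5008 and in trex8168, and 0 were called in trex0108. Among the import genes called, TIMM9 and TIMM21 stood furthest from control, at 0.35 and 0.31 in trex5008, in the authors' deposited table. TIMM9 is a small chaperone of the intermembrane space, and TIMM21 is a part of the inner membrane import machinery.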
